A study of Homo sapiens with 8 samples.

Results

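Heterogeneous nuclear ribonucleoproteins (hnRNPs) and serine- and arginine-rich (SR) proteins are the main families of RNA-binding proteins that steer pre-mRNA splicing, and many of them also accompany mRNAs through export, translation and decay. Several control their own mRNAs by splicing in a so-called poison exon or a 3' UTR intron, which sends the message to nonsense-mediated decay. Processing bodies (P-bodies) are cytoplasmic granules of untranslated mRNA and of the proteins that repress, decap and decay it, and EDC4 is a scaffold of the decapping machinery in them.

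The mRNAs described here are those whose gene symbol begins with HNRNP, without pseudogene names, or with SRSF, together with TRA2A, TRA2B, PTBP1, PTBP2, RBM39 and ZRANB2. The rule used names only, and 43 of the 59414 genes of the count table met it: 27 hnRNP or polypyrimidine tract-binding (PTB) genes and 16 SR or SR-like genes. The 4 HNRNPC-like genes HNRNPCL1, HNRNPCL2, HNRNPCL3 and HNRNPCL4 had at most 1 count in any library, and the other 39 passed the filter on low counts and were listed in all 4 editing tables.

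All 8 libraries came from HEK293T, a human embryonic kidney cell line, whose cells carried editors directed to P-bodies in the manner of TRIBE and STAMP. In TRIBE an adenosine deaminase domain fused to an RNA-associated protein turns nearby adenosines into inosine, which is read as G; in STAMP a cytidine deaminase turns cytidines into uridine. The labels do not say which P-body protein carried the editors. Sorted P-bodies (labelled Sorted-Pbodies, 2 libraries from 50 ng of RNA each) were set against the cytosol of the same kind of cells (labelled Cytosol, 2 libraries from 100 ng), and cells with a small interfering RNA to EDC4 (siEDC4, 2 libraries from 500 ng of total RNA) against cells with a control siRNA (siNC, 2 libraries from 500 ng). Within each group the libraries carry batch numbers 1 and 2. The labels do not say whether these were separate cultures; the p-values therefore rest on the spread between these libraries, which may be technical.

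The sort libraries held 21186963 to 23716926 counts, and the reads in the knockdown editing tables summed to between 5697417 and 6294767 per library. The 2 sorted libraries differed from each other more than the 2 cytosol libraries did (chi-square per degree of freedom 26.5 against 3.25). The 2 siNC libraries differed in their reads by no more than sampling noise (chi-square per degree of freedom 1.02) and were counted as 1 sample in the knockdown tests. All 9 markers of HEK293 cells were at 1 CPM or more in every sort library, whereas at most 1 of 8 blood markers was. Of 6 fibroblast markers 3 or 4 were at 1 CPM or more in each sort library. Their sums were 17.9 to 31.2 CPM, against 352 to 551 CPM for the HEK293 markers. A large part of the HEK293 sum was VIM, at 149.1 and 142.5 CPM in the sorted libraries and 309.4 and 331.4 CPM in the cytosol libraries. Summed over 9 listed nuclear-retained RNAs the level was 1713 and 2778 CPM in sorted P-bodies, against 1858 and 1769 CPM in cytosol, so neither fraction was free of them. Most of that sum was MALAT1, at 1203 and 2177 CPM in sorted P-bodies against 1304 and 1209 CPM in cytosol. KCNQ1OT1 and LINC-PINT were higher in both sorted libraries than in both cytosol libraries, whereas TUG1 and NEAT1 were lower. The part of nuclear-retained RNAs in the results below was not tested.

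Several of the genes are related pairs whose coding sequences are similar and whose mRNAs nonetheless differed between the fractions. To show how alike and how separable by sequence the pairs are, the most similar 60-base stretch of the coding sequences is given for 3 pairs (GENCODE v29 transcripts, GRCh38), 5' to 3', with capitals at the bases that differ between the 2 genes.
HNRNPD: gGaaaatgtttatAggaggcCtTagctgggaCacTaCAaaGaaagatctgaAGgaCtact
HNRNPDL: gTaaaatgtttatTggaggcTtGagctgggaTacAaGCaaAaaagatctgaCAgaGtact
PTBP1: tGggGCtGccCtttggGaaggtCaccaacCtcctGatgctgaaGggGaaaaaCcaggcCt
PTBP2: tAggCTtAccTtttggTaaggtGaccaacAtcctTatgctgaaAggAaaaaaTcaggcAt
HNRNPL: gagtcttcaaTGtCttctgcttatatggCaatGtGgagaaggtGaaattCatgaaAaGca
HNRNPLL: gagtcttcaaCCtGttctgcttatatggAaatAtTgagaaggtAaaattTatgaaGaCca

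HNRNPD and HNRNPDL shared 68.4% of their aligned coding bases and differed at 12 of the 60 positions shown. PTBP1 and PTBP2 shared 66.1% and differed at 13 positions, and HNRNPL and HNRNPLL shared 62.5% and differed at 10. HNRNPA1L2, an intronless gene, shared 98.4% of aligned coding bases with HNRNPA1. Reads of HNRNPA1L2 can therefore not be told apart from those of HNRNPA1 with certainty, and its values below are uncertain.

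The sort asked which of these mRNAs were richer in P-bodies than in the cytosol. Of the 39 tested members, 10 were higher in sorted P-bodies and 19 were lower by edgeR's quasi-likelihood test at an adjusted p under 0.05, where 28.8% of all 18745 genes tested were higher and 29.0% lower. The member mRNAs together made up 1.06% and 1.06% of the counts in the 2 sorted libraries, against 1.42% and 1.41% in the 2 cytosol libraries. The median log2 fold change was -0.27 over the members and -0.03 over all genes. Among the hnRNP and PTB mRNAs 6 of 23 rose and 14 fell, with a median of -0.38. Among the SR and SR-like mRNAs 4 of 16 rose, 5 fell and 7 did not pass, with a median of -0.00.

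**Figure D1:**
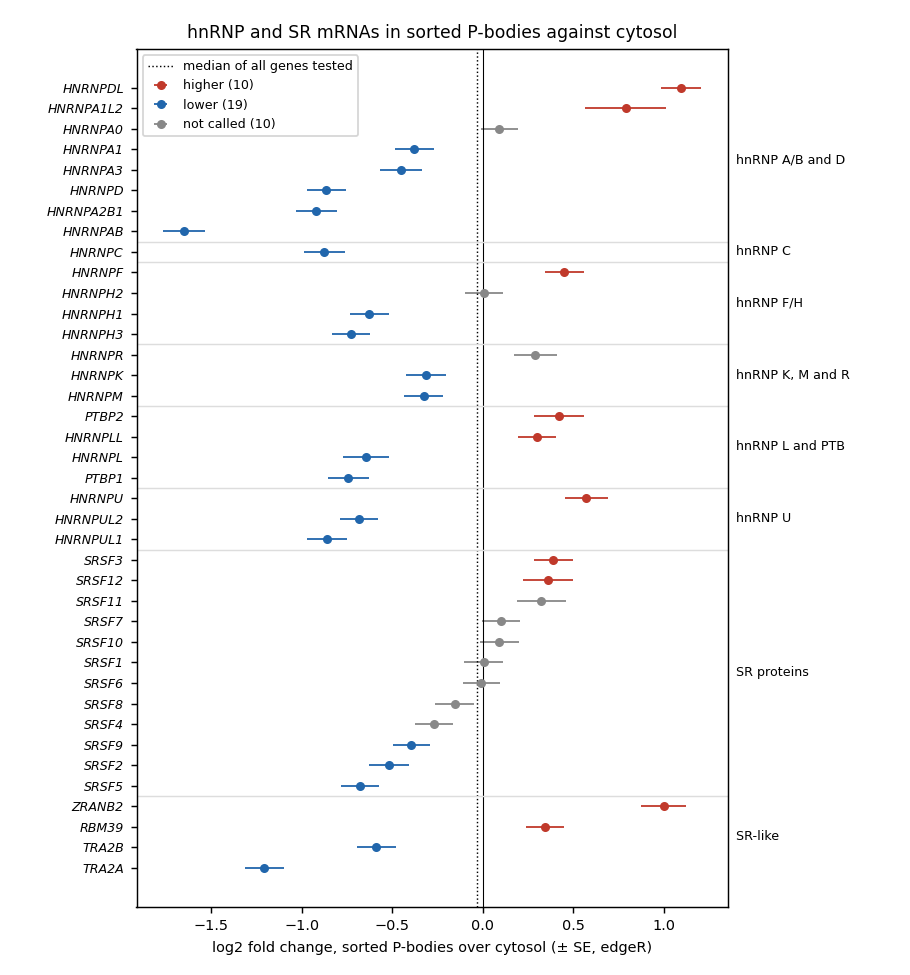
Log2 fold change of normalised counts, sorted P-bodies over cytosol, with its SE from edgeR (2 libraries a group), for the 39 tested hnRNP and SR mRNAs by family; colours give the call at an adjusted p under 0.05 and the dotted line is the median of all genes tested (-0.03). HNRNPDL at 1.09 and ZRANB2 at 1.00 stand at the right end and HNRNPAB at -1.65 at the left end, and most families hold mRNAs on both sides of 0.

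The hnRNP A/B and D family, whose members bind mRNA through paired RNA recognition motifs, spanned the widest range. HNRNPAB (chromosome 5, 178204533 to 178211163), whose protein also acts in mRNA transport, fell most, with 141 and 126 CPM in sorted P-bodies against 409 and 429 CPM in cytosol. Its log2 fold change was -1.65 ± 0.12 (SE; edgeR adjusted p = 5.2e-06), and only 2.2% of the genes tested had a lower value. HNRNPA2B1 (chromosome 7, 26171151 to 26201529), known for binding m6A-marked and exosome-sorted RNA, had 492 and 534 CPM in sorted P-bodies against 956 and 983 CPM in cytosol, a log2 fold change of -0.92 ± 0.11 (edgeR adjusted p = 9.3e-05). HNRNPA1, the most studied silencer of exons, had 986 and 1009 CPM in sorted P-bodies against 1304 and 1286 CPM in cytosol (log2 fold change -0.38 ± 0.11, edgeR adjusted p = 0.015, or 0.2 without the first cytosol library). In all 3 mRNAs both sorted libraries lay below both cytosol libraries, which was so for 41.6% of all genes tested. HNRNPA3 fell by 0.45 on the log2 scale, and HNRNPA0 at 0.09 did not pass.

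HNRNPD (AUF1), which binds AU-rich elements and hastens decay, and its relative HNRNPDL lie 48061 bases apart on chromosome 4 (82352498 to 82374503 and 82422565 to 82430462) and moved in opposite directions. HNRNPDL had 577 and 629.6 CPM in sorted P-bodies against 282 and 283 CPM in cytosol, a log2 fold change of 1.09 ± 0.11 (edgeR adjusted p = 3e-05). HNRNPD had 204 and 216 CPM in sorted P-bodies against 379.9 and 384 CPM in cytosol, a log2 fold change of -0.86 ± 0.11 (edgeR adjusted p = 0.0001). The sorted libraries thus held more HNRNPDL than HNRNPD reads and the cytosol libraries fewer. Within a library, where no scaling enters, the ratio of HNRNPDL to HNRNPD counts was 2.83 and 2.92 in sorted P-bodies, against 0.743 and 0.736 in cytosol. With 2 libraries a group an exact two-sided permutation test of that ratio cannot go below p = 0.333, the value it gave.

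Other related pairs differed too, and in 3 of them 1 partner was called higher and the other lower. PTBP1 (chromosome 19, 797075 to 812327), the repressor of neuronal exons in most cells, had 329 and 295 CPM in sorted P-bodies against 519 and 524 CPM in cytosol (log2 fold change -0.74 ± 0.11, edgeR adjusted p = 0.00036). Its neuronal counterpart PTBP2 (chromosome 1, 96721665 to 96823738) had 85.6 and 113 CPM in sorted P-bodies against 71.5 and 76.4 CPM in cytosol (log2 fold change 0.42 ± 0.14, edgeR adjusted p = 0.024). PTBP1 protein is known to repress PTBP2 by making its mRNA skip an exon.

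HNRNPL, which binds CA repeats, had 204 and 165 CPM in sorted P-bodies against 281 and 295 CPM in cytosol (log2 fold change -0.64 ± 0.13, edgeR adjusted p = 0.0019). HNRNPLL, known for CD45 splicing in lymphocytes, had 52.7 and 57.8 CPM in sorted P-bodies against 43.1 and 46.5 CPM in cytosol (log2 fold change 0.30 ± 0.10, edgeR adjusted p = 0.031). HNRNPU (SAF-A), a nuclear scaffold protein, had 1298 and 1502 CPM in sorted P-bodies against 932 and 952 CPM in cytosol (log2 fold change 0.57 ± 0.12, edgeR adjusted p = 0.0027). Its relative HNRNPUL2 had 27.4 and 26.5 CPM in sorted P-bodies against 46.0 and 40.5 CPM in cytosol (log2 fold change -0.68 ± 0.11, edgeR adjusted p = 0.00043). In each of these 4 mRNAs the sorted and cytosol libraries did not overlap. Over all 18745 genes tested, both sorted libraries lay above both cytosol libraries in 38.8% and below them in 41.6%. Exons of HNRNPU overlap COX20 on the other strand and those of HNRNPUL2 overlap a readthrough gene. Strand use in counting is not given in the sources used here, so those 2 values are uncertain. Other members whose exons overlap a gene on either strand carry the same limit. Among hnRNP and PTB members these are HNRNPAB, HNRNPA1L2, HNRNPA2B1, HNRNPA3, HNRNPD, HNRNPH2, HNRNPH3, HNRNPK, HNRNPL, HNRNPM, HNRNPUL1 and PTBP1. Among SR and SR-like members they are SRSF1, SRSF2, SRSF4, SRSF6, SRSF9 and ZRANB2.

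In the remaining pairs the partners did not part in sign with a call on both sides. HNRNPH1 had 492 and 483 CPM in sorted P-bodies against 754 and 751 CPM in cytosol (log2 fold change -0.63 ± 0.11, edgeR adjusted p = 0.00078). HNRNPH2, which shares 87.2% of its coding bases with HNRNPH1, had 60.5 and 64.1 CPM in sorted P-bodies against 58.6 and 65.2 CPM in cytosol, and the groups overlapped (log2 fold change 0.01 ± 0.10, edgeR adjusted p = 0.95). Both partners of the Transformer-2 pair, SR-like activators of exons, fell: TRA2A by 1.21 on the log2 scale (55.7 and 60.8 CPM in sorted P-bodies, against 131 and 138 CPM in cytosol; edgeR adjusted p = 1.4e-05) and TRA2B by 0.59 (edgeR adjusted p = 0.0012).

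**Figure D2:**
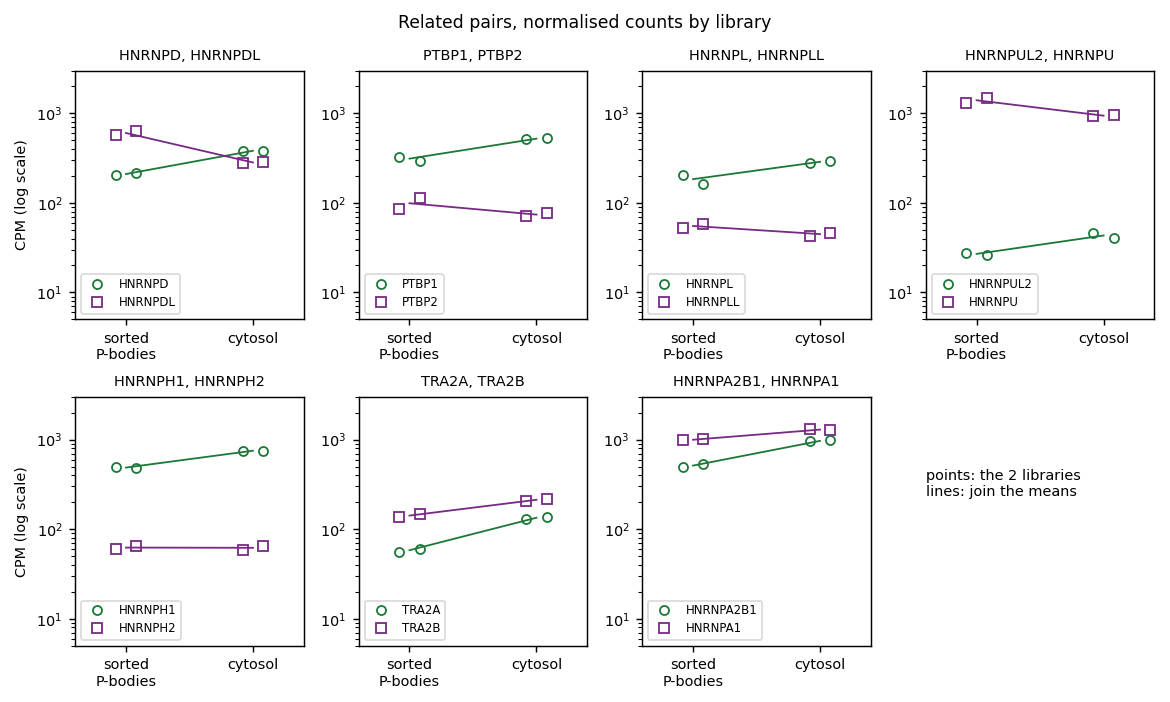
Normalised counts (CPM, log scale) of 7 related pairs in the 2 sorted P-body libraries (left) and the 2 cytosol libraries (right); lines join the group means. HNRNPDL stands above HNRNPD in sorted P-bodies (577 and 629.6 against 204 and 216 CPM) and below it in cytosol, and the lines of PTBP1 with PTBP2, of HNRNPL with HNRNPLL and of HNRNPUL2 with HNRNPU lean in opposite directions.

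Among the remaining hnRNP mRNAs, HNRNPC, whose protein binds uridine tracts, fell by 0.88 on the log2 scale, with 519 and 477 CPM in sorted P-bodies against 897 and 929 CPM in cytosol (edgeR adjusted p = 0.00013). HNRNPUL1 fell by 0.86, HNRNPH3 by 0.73, HNRNPM by 0.33 and HNRNPK by 0.32. The call of HNRNPK was lost when the batch number entered as a replicate block. HNRNPF, which binds G tracts, rose, with 271 and 289 CPM in sorted P-bodies against 199 and 211 CPM in cytosol (log2 fold change 0.45 ± 0.11, edgeR adjusted p = 0.0056). HNRNPR, at 0.29 ± 0.12, did not pass (edgeR adjusted p = 0.058). HNRNPA1L2 was called higher at 0.79 ± 0.22 from 5.90 and 9.35 CPM in sorted P-bodies against 4.42 and 4.36 CPM in cytosol (edgeR adjusted p = 0.013), with the uncertainty given above.

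The 12 SR proteins proper, which bind exonic enhancers and share a domain of arginine-serine repeats, gave 2 rises and 3 falls. SRSF3 and SRSF12 were called higher, at 0.39 and 0.36 on the log2 scale, and SRSF5, SRSF2 and SRSF9 lower, at -0.68, -0.52 and -0.39. SRSF5 had 174 and 171 CPM in sorted P-bodies against 272 and 279.8 CPM in cytosol. The other 7 SR proteins did not pass, with estimates between -0.27 for SRSF4 and 0.32 for SRSF11. Of the SR-like mRNAs, ZRANB2 (chromosome 1, 71063291 to 71081289), a zinc finger splicing factor, had 363 and 442 CPM in sorted P-bodies against 199 and 204 CPM in cytosol (log2 fold change 1.00 ± 0.13, edgeR adjusted p = 0.00011). RBM39 (CAPERα), an SR-related cofactor, rose by 0.34 (edgeR adjusted p = 0.021).

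Levels per kilobase were taken over the whole counted gene model, which can be much longer than a single mRNA. The model held 6697 bases for HNRNPA1 and 2118 for HNRNPAB, against 1842 and 1796 in the transcripts used for sequence features. The order of genes below therefore depends on the gene models and is not a ranking of mRNA abundance. In cytosol the highest were HNRNPAB at 198 CPM per kb, HNRNPA1 at 193 and HNRNPK at 189, and the lowest tested member was HNRNPA1L2 at 3.20. In sorted P-bodies HNRNPK at 152, HNRNPA1 at 149 and HNRNPDL at 109 CPM per kb came first, and HNRNPAB stood at 63.1. ZRANB2 was at 80.8 CPM per kb in sorted P-bodies, against 40.4 in cytosol.

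All 29 called members had the same sign in batch 1 and in batch 2, as did 7 of the 10 not called. The calls come from these same libraries, so the agreement adds no separate support. The all-gene median moved by -0.20 on the log2 scale when libraries were scaled by size alone, and then 4 of the 10 rises (HNRNPDL, ZRANB2, HNRNPA1L2 and HNRNPU) and all 19 falls kept their call, where 22.7% of all genes were higher and 36.9% lower. Leaving out either cytosol library left 3 of the 10 rises called (HNRNPDL, ZRANB2 and HNRNPA1L2) and 14 or 13 of the 19 falls; in those fits the spread came from the 2 sorted libraries alone. The falls that lost their call were HNRNPA1, HNRNPA3, HNRNPK, HNRNPM and SRSF9 without either cytosol library, and SRSF2 without the second. The estimates hardly moved, by at most 0.088 on the log2 scale for the 7 rises and 0.073 for the 6 falls that lost a call. Without the second sorted library HNRNPA1L2 (0.41) and SRSF12 lost their calls, and DESeq2 did not call HNRNPLL, SRSF12, HNRNPK or HNRNPM.

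Sequence features of the members followed the direction of change only loosely. The 10 mRNAs that were higher had a median of 37.2% G or C at the third codon position (GC3) and a median 3' UTR of 1993.5 bases. The 19 that were lower had 48.0% and 779 bases, the 10 not called 46.2% and 1164.5 bases, and all 13596 protein-coding genes tested 59.4% and 991 bases. PTBP1 (82.5%) and PTBP2 (30.4%), and likewise HNRNPL (67.7%) and HNRNPLL (37.8%), differed in GC3, while HNRNPD (49.3%) and HNRNPDL (46.9%) were close to each other. Across the members the log2 fold change had a Spearman rho of -0.25 with GC3 and 0.28 with 3' UTR length (n = 39 genes), against -0.53 and 0.27 across all protein-coding genes tested (n = 13596). These are correlations across genes measured in the same 4 libraries, which are not independent replicates.

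Editing gave a second readout, a share rather than an amount: the deposited score is the number of edited reads over the number of reads listed for the gene, and the sources used here do not describe the calling of edited sites. The A-to-I score was higher in sorted P-bodies than in cytosol for 39 of 39 members by the quasi-likelihood test on edited and unedited reads, where 73.5% of all 11301 genes tested were higher and 1.04% lower; the share that was higher was 81.0% of genes with at least 100 reads in every library. The median member score was 9.03% and 9.54% in the sorted libraries, against 2.20% and 2.01% in the cytosol libraries. The medians over all listed genes were 6.82% and 6.97%, against 2.74% and 2.63%. The median log2 odds ratio was 2.09 over the members and 1.46 over all genes tested. In all 39 members both sorted scores lay above both cytosol scores, which was so for 82.3% of all genes.

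With the median of each library set to a common value, so that a gene is compared with the general rise of the editor, 23 of the 39 members remained higher and 3 became lower, where 14.5% of all genes were higher and 14.2% lower. The centred shares were not computed for genes with at least 100 reads in every library, so the part of coverage in that contrast was not tested. The 3 lower members were HNRNPL (log2 odds ratio -0.95), HNRNPUL1 (-0.66) and HNRNPA1 (-0.58). Without centring these 3 were called higher, at 0.52, 0.82 and 0.89. HNRNPL scored 10.6% and 9.24% in sorted P-bodies against 7.67% and 6.69% in cytosol, and HNRNPA1 13.8% and 14.7% against 8.59% and 7.82%. Both had cytosol scores well above the member median of 2.20% and 2.01%. Whether a high cytosol score bears on the size of the rise was not tested.

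The largest A-to-I difference was that of SRSF5, at 2.41% and 3.47% in sorted P-bodies against 0.0623% and 0% in cytosol, which are 66 and 71 edited reads against 3 and 0. The ratio of the summed scores was 93.0 with a 95% exact counting interval of 31.1 to 456. PTBP1 followed at 3.01% and 4.20% in sorted P-bodies against 0.599% and 0.0847% in cytosol (log2 odds ratio 3.43 ± 0.37, edgeR adjusted p = 2.9e-07). SRSF5 and PTBP1 had among the lower scores of the members in both fractions, so a large odds ratio did not mean a high score. SRSF3 had the highest sorted scores, 23.6% and 23.6%, against 5.93% and 5.73% in cytosol.

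ZRANB2 and HNRNPDL were high in both measures of the sort. ZRANB2 scored 16.7% and 15.5% in sorted P-bodies against 2.25% and 1.87% in cytosol (log2 odds ratio 3.18 ± 0.14, edgeR adjusted p = 1.4e-10). HNRNPDL scored 11.0% and 12.1% in sorted P-bodies against 2.49% and 1.33% in cytosol (2.75 ± 0.19, edgeR adjusted p = 3.2e-09). HNRNPD, which fell in abundance, scored 2.08% and 3.06% in sorted P-bodies against 0.276% and 0.429% in cytosol (2.87 ± 0.27, edgeR adjusted p = 6.2e-08). HNRNPD and HNRNPDL thus had odds ratios within their errors of each other, from sorted scores that were lower for HNRNPD.

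**Figure D3:**
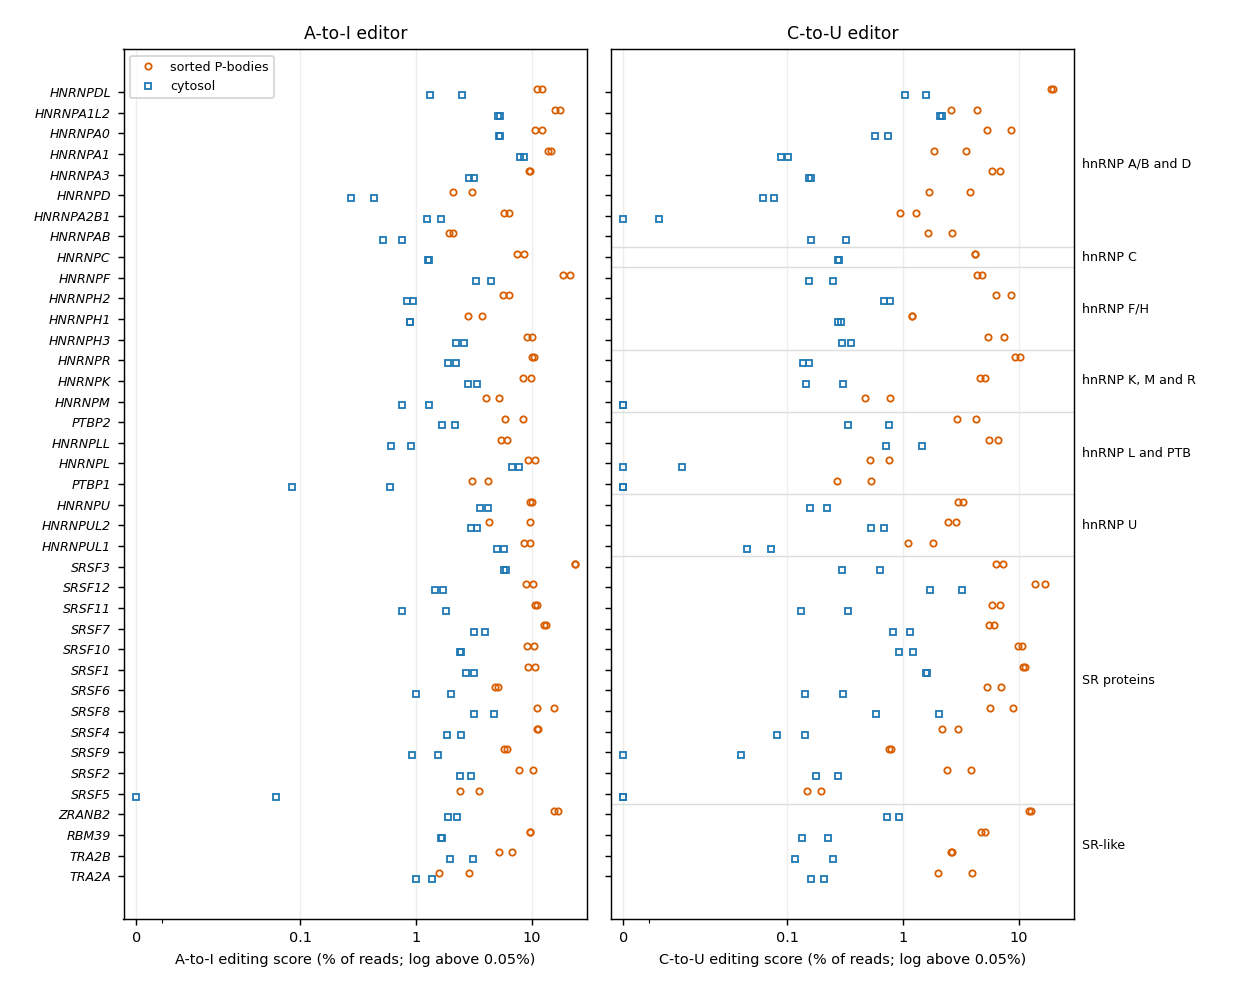
Editing score (edited reads as % of the reads listed for the gene, log scale above 0.05%) of the 39 listed members in each of the 2 sorted P-body libraries (circles) and the 2 cytosol libraries (squares), A-to-I on the left and C-to-U on the right. In both panels every member's circles lie to the right of its squares, and PTBP1, HNRNPM and SRSF5 have both C-to-U squares at 0.

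The C-to-U score was higher in sorted P-bodies for 38 of 39 members, where 68.2% of all 10611 genes tested were higher and 0.264% lower; the share that was higher was 74.2% of genes with at least 100 reads in every library. The exception was HNRNPA1L2, with 4 and 3 edited reads in sorted P-bodies against 2 and 2 in cytosol (log2 odds ratio 0.65 ± 0.77, edgeR adjusted p = 0.49). The median member score was 4.34% and 4.20% in the sorted libraries, against 0.272% and 0.247% in cytosol, and over all listed genes 2.21% and 2.50% against 0.546% and 0.522%. The median log2 odds ratio was 4.10 over the members and 2.33 over all genes tested. All 39 members had both sorted scores above both cytosol scores, as did 80.0% of all genes. After centring on each library's median, 22 members remained higher and 0 became lower, where 8.57% of all genes were higher and 6.75% lower. Here too the centred shares were not computed for well-covered genes alone.

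The members with the largest C-to-U odds ratios were those with almost no edited read in cytosol. PTBP1 had 13 and 18 edited reads in sorted P-bodies (0.267% and 0.527%) and 0 of 18842 reads in cytosol, which allows a score of up to 0.0159%. Its summed sorted score was 23.5 times that limit, without the counting error of the sorted reads. By the same limit of 3 edited reads over the group, HNRNPM (15 and 19 edited reads) was at 19.9 times its limit. SRSF5 (4 and 4 edited reads) was at 5.46 times its limit. These ratios are not lower bounds, since the sorted counts have an error of their own. HNRNPA2B1 scored 0.938% and 1.29% in sorted P-bodies, against 2 edited reads among 29074 in cytosol; the ratio of the summed scores was 161 (95% exact counting interval 43.7 to 1340). HNRNPR had both a high score and a large difference, at 9.28% and 10.2% in sorted P-bodies against 0.155% and 0.137% in cytosol (log2 odds ratio 6.18 ± 0.33, edgeR adjusted p = 1.7e-06).

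HNRNPDL carried the highest C-to-U score of the members, 18.7% and 19.8% in sorted P-bodies against 1.57% and 1.04% in cytosol (log2 odds ratio 4.17 ± 0.28, edgeR adjusted p = 1.7e-06). SRSF12 followed at 16.7% and 13.8% against 3.23% and 1.71%, from 77 and 66 edited reads in sorted P-bodies against 18 and 11 in cytosol. ZRANB2 scored 12.7% and 12.2% in sorted P-bodies against 0.730% and 0.913% in cytosol, and SRSF1 10.8% and 11.2% against 1.57% and 1.62%. The smallest called difference was that of HNRNPH1, at a mean of 1.19% in sorted P-bodies against 0.282% in cytosol (log2 odds ratio 2.09 ± 0.33, edgeR adjusted p = 0.00014).

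The editors ranked individual mRNAs differently, with values from the same libraries and the same cytosol controls. HNRNPL had the smallest A-to-I odds ratio (0.52) and a C-to-U odds ratio of 5.48, with 0.522% and 0.751% C-to-U in sorted P-bodies against 1 edited read of 9017 in cytosol. HNRNPA1 had 0.89 in A-to-I and 4.77 in C-to-U, with C-to-U scores of 1.84% and 3.45% in sorted P-bodies against 0.0882% and 0.102% in cytosol. TRA2A, which fell in abundance, had 0.96 in A-to-I (2.88% and 1.57% in sorted P-bodies against 1.36% and 1.01% in cytosol) and 3.97 in C-to-U (1.98% and 3.89% against 0.207% and 0.161%). PTBP2 and HNRNPLL, which rose in abundance, had 1.95 and 2.98 in A-to-I and 2.71 and 2.57 in C-to-U.

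**Figure D4:**
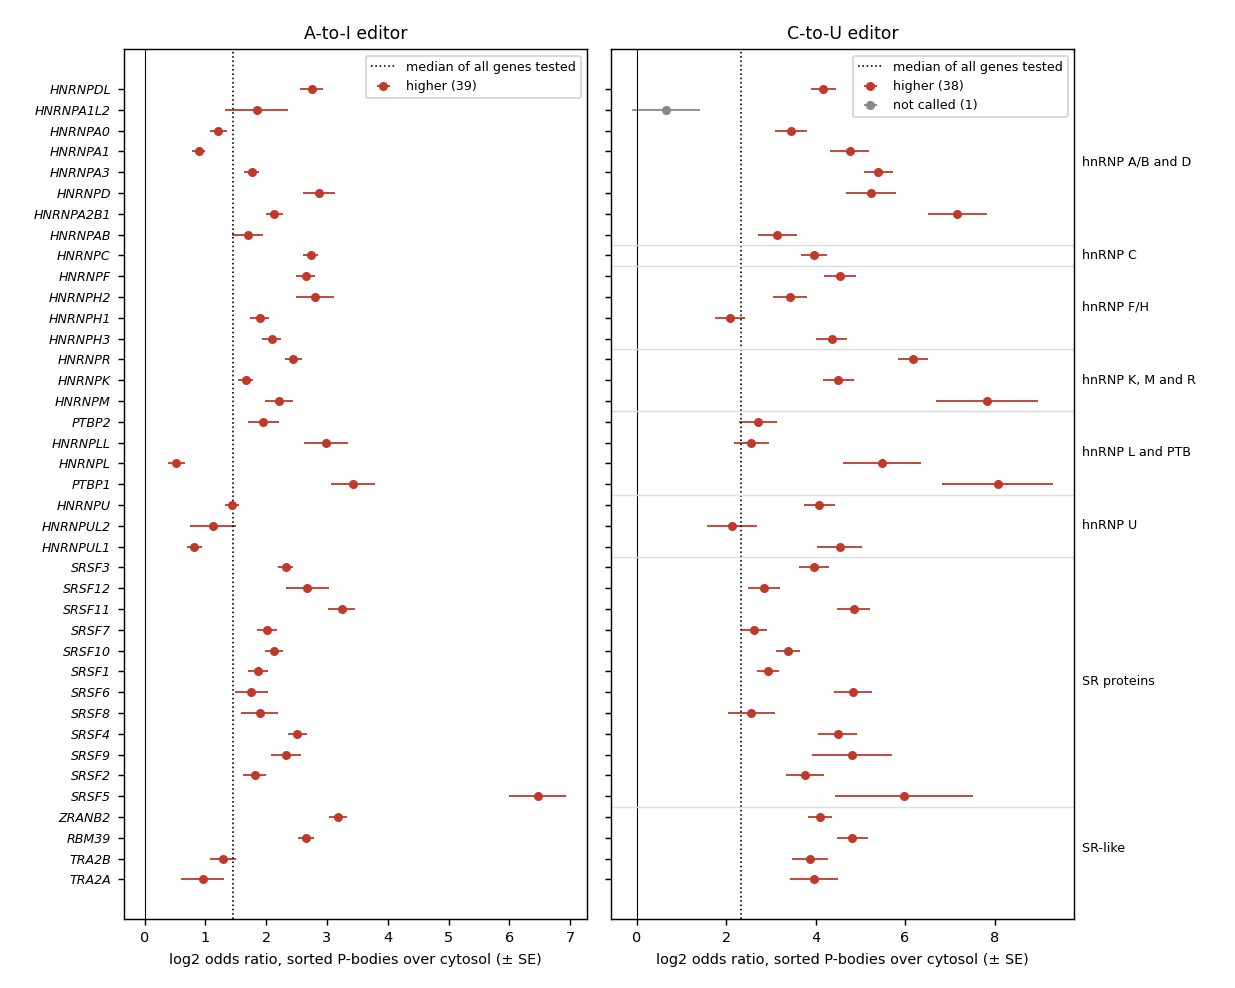
Log2 odds ratio of being edited, sorted P-bodies over cytosol, with its SE (edgeR, 2 libraries a group), for the 39 members by family, A-to-I on the left and C-to-U on the right; dotted lines are the medians of all genes tested (1.46 and 2.33). All 39 members are called higher in A-to-I and 38 in C-to-U, and HNRNPL at 0.52 is the lowest point of the left panel. The C-to-U estimates of PTBP1, HNRNPM and SRSF5 have no edited cytosol read behind them.

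The knockdown asked whether less EDC4 changes these mRNAs or their editing. EDC4 itself had 40.3 and 32.7 CPM in siEDC4 cells against 109.8 and 106 CPM in siNC cells, a log2 fold change of -1.56 ± 0.14 (edgeR adjusted p = 2.6e-25). No member was called higher or lower in its reads, where 0.432% of all 10642 genes tested were higher and 0.132% lower. Over all genes 60 were called, 786 had an unadjusted p under 0.05 and DESeq2 called 3. Of the 39 member estimates 34 were below 0, with a median of -0.11 against -0.00 over all genes. Both siEDC4 libraries lay below both siNC libraries in 26 members and above them in 3, which was so for 23.9% and 24.5% of all genes. The members made up 1.73% and 1.81% of the reads in siEDC4 cells, against 1.86% and 1.87% in siNC cells.

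The largest single decreases were small. HNRNPF had 302 and 299.8 CPM in siEDC4 cells against 344 and 356 CPM in siNC cells (log2 fold change -0.22 ± 0.11, edgeR adjusted p = 0.68). HNRNPM had 425 and 436 CPM against 488 and 504 CPM in siNC cells (-0.20 ± 0.11, edgeR adjusted p = 0.69), and HNRNPH1 926 and 1030.0 CPM against 1111 and 1112 CPM (-0.18 ± 0.10, edgeR adjusted p = 0.75). These 3 mRNAs were called lower, and no other member was, when all 4 libraries entered with the batch number as a replicate block (edgeR adjusted p between 0.036 and 0.04), where 2.85% of all genes were higher and 2.05% lower. Those calls count the siNC libraries as 2 samples, although their reads differed by no more than sampling noise, and the fit of 4 libraries without the block called 0 members. PTBP2 had 55.9 and 60.7 CPM in siEDC4 cells against 70.3 and 67.8 CPM in siNC cells (-0.24 ± 0.14, edgeR adjusted p = 0.78). ZRANB2 had the highest estimate, with 407 and 379 CPM in siEDC4 cells against 348 and 368 CPM in siNC cells (0.14 ± 0.11, edgeR adjusted p = 0.90). HNRNPD at -0.12 and HNRNPDL at -0.07 did not part as they did in the sort.

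How many members were called depended on which libraries set the spread. Without siEDC4 library 1 there were 10 members lower, and without siEDC4 library 2 there were 22 lower and 1, ZRANB2, higher; in those fits the siNC libraries entered as 2 samples and the spread came from them alone. The 2 siEDC4 libraries differed from each other (chi-square per degree of freedom 3.46); of the pairs, HNRNPL had a log2 ratio of -0.25 in batch 1 and of -0.00 in batch 2, and HNRNPDL of -0.20 and 0.06.

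**Figure D5:**
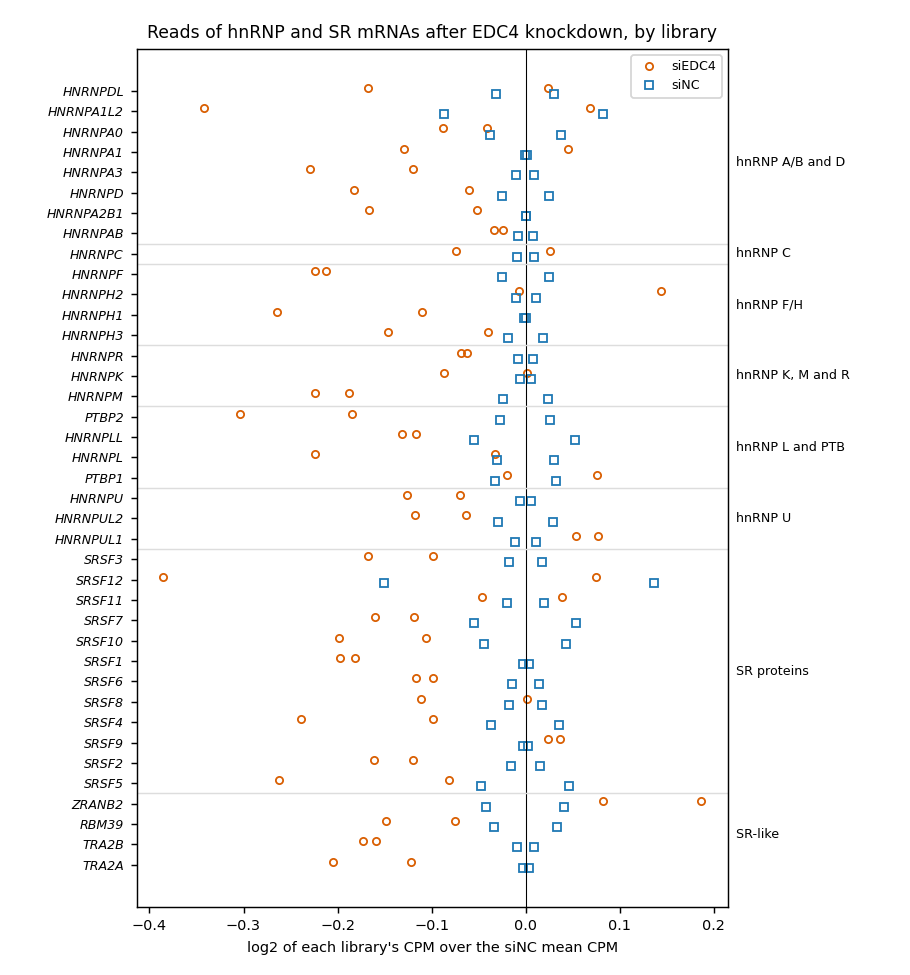
Log2 of each library's CPM over the mean siNC CPM for the 39 members, siEDC4 libraries as circles and siNC libraries as squares. Both circles lie left of both squares in 26 members, and the circles of HNRNPDL and HNRNPA1 lie on either side of 0.

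Editing scores of the members did not pass in the knockdown with either editor, and the scores were low. In simulated data these tests recovered 18.7% of 4-fold changes in A-to-I and 61% in C-to-U. A change of that size could therefore go uncalled. The median member A-to-I score was 0.699% and 0.629% in siEDC4 cells, against 0.347% and 0.467% in siNC cells, and over all listed genes 1.22% and 1.29% against 1.02% and 0.993%. Of 36 members tested, 0 were called, as were 0 of 9157 genes, of which 483 had an unadjusted p under 0.05; limma on log2 scores also called 0. The 3 members not tested were HNRNPAB, HNRNPL and SRSF5, which had no edited read in either siEDC4 library. Of these HNRNPAB had 0 and 0 edited reads in siEDC4 cells against 6 and 6 in siNC cells, where the siEDC4 count allows a score of up to 0.0523% and the summed siNC score was 0.202%. Among all 39 members both siEDC4 scores lay above both siNC scores in 18 and below in 2, HNRNPAB and HNRNPUL2. Over the 10633 genes with at least 10 reads in every library those shares were 26.9% and 7.83%.

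HNRNPA1, HNRNPA3 and HNRNPK had the most edited reads in A-to-I. HNRNPA1 had 3.63% and 3.73% in siEDC4 cells against 2.81% and 3.31% in siNC cells (log2 odds ratio 0.28 ± 0.25, edgeR adjusted p = 0.88). HNRNPA3 had 1.48% and 1.63% in siEDC4 cells against 1.25% and 1.03% in siNC cells (0.45 ± 0.28, edgeR adjusted p = 0.84). HNRNPK overlapped between the groups, with 0.804% and 1.13% in siEDC4 cells against 0.850% and 1.34% in siNC cells. Larger estimates came from fewer edited reads and did not pass either. SRSF2 had 1.57% and 1.82% in siEDC4 cells against 0.879% and 0.934% in siNC cells, from 33 and 37 edited reads against 21 and 21 (log2 odds ratio 0.91 ± 0.35, edgeR adjusted p = 0.84). PTBP2 had 2.35% and 1.73% in siEDC4 cells against 0.457% and 0.514% in siNC cells, from 8 and 6 edited reads against 2 and 2 (2.05 ± 0.72, edgeR adjusted p = 0.84). HNRNPA2B1 was listed with 0 and 23 edited reads of 9056 and 9180 in siEDC4 cells, and with 21 and 1 of 10412 and 9593 in siNC cells, so its libraries disagreed within each group.

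C-to-U scores were higher than A-to-I scores in these total RNA libraries, with member medians of 1.97% and 1.85% in siEDC4 cells against 1.66% and 1.75% in siNC cells. Of 38 members tested, 0 were called, as were 0 of 9646 genes, of which 374 had an unadjusted p under 0.05, and limma called 0. Both siEDC4 scores lay above both siNC scores in 8 of all 39 members and below in 2, HNRNPR and TRA2A, where the shares of the 10821 genes with at least 10 reads in every library were 23.6% and 9.82%. SRSF9 had 2.60% and 2.57% in siEDC4 cells against 1.72% and 0.935% in siNC cells, from 45 and 42 edited reads against 30 and 15 (log2 odds ratio 0.96 ± 0.37, edgeR adjusted p = 1.0). SRSF4 had 1.22% and 0.168% in siEDC4 cells against 0.196% and 0.255% in siNC cells, so its estimate of 1.57 came from siEDC4 library 1 and was -0.40 without it.

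Other genes of the same machinery were read from 3 lists. The first held kinases that act on splicing factors and the nuclear importins TNPO1 and TNPO3. Of its 11 tested genes 7 were higher in sorted P-bodies and 0 lower, with a median log2 fold change of 0.94. PRPF4B, a kinase of the spliceosome, rose most in this list (1.89 ± 0.21, edgeR adjusted p = 5.1e-05), and CLK3, at -0.21 ± 0.10, did not pass (edgeR adjusted p = 0.1). TNPO1 had 771 and 921 CPM in sorted P-bodies against 295 and 303 CPM in cytosol. The difference was smaller for TNPO3, at 149 and 155 CPM against 131 and 135 CPM. Of 23 SR-related proteins 9 were higher and 9 lower, with SCAF11 at 1.74 ± 0.22 and SRRM2, a core component of nuclear speckles, at -1.42 ± 0.12. Of 38 hnRNP-like and tissue splicing regulators 7 were higher and 22 lower, with MBNL1, the muscleblind protein, at 2.22 ± 0.16 and PCBP4 at -1.29 ± 0.17. The shares of all genes were 28.8% and 29.0%, as given above. A-to-I scores were higher in sorted P-bodies for 10 of 11, 23 of 23 and 33 of 36 of the genes tested in these lists and C-to-U scores for 11 of 11, 20 of 23 and 31 of 35, where 73.5% and 68.2% of all genes were higher. The A-to-I scores of 2 genes of the last list were called lower: PCBP4 (log2 odds ratio -1.31 ± 0.58, edgeR adjusted p = 0.048) and NOVA2 (edgeR adjusted p = 0.037), which had 0 edited reads of 141 in sorted P-bodies against 17 of 487 in cytosol. The sorted libraries of PCBP4 disagreed, with 11 edited reads of 124 and 0 of 77, against 42 of 338 and 50 of 386 in cytosol. None of the listed genes was called in the knockdown reads.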

How the data were processed

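RNA was measured by RNA-seq in 8 HEK293T libraries. Per the submitters' processing notes, FastQC 0.11.9, cutadapt 1.18, STAR 2.7.9a and featureCounts 2.0.1 were used with hg38; the annotation, strand setting, handling of multiply matching reads and calling of edited sites are not described in these sources. The authors deposited whole-number read counts per gene for the sort, not normalized, per the file headers. The authors deposited reads per gene in the editing tables, taken here as estimated counts because broken lines hold other values; every value used was whole, and 3 broken lines per table were left out. The deposited editing score, a fraction, equalled edited reads over reads within 5.0e-08 and is printed as a percentage.

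Counts were tested with edgeR 4.0.16 (R 4.3.3; quasi-likelihood test, TMM scaling, filterByExpr, Benjamini-Hochberg over all genes, threshold 0.05). CPM uses the TMM-scaled library size. Editing was tested with the same test on edited and unedited reads, with an effect for each library, over genes with at least 10 reads in every library and an edited read in at least 2. Each SE was obtained by dividing the log2 estimate by the square root of F. A listed 0 was given a limit of 3 counts; limits and exact 95% intervals cover counting error only, since reads are not independent molecules. Each test was checked on simulated counts with known 4-fold changes, placed in well-covered genes and, for editing, in genes whose edited share lay within set limits. Recovery was 89.5% to 100% for the 3 sort tests and the knockdown reads. It was 18.7% for knockdown A-to-I editing and 61% for knockdown C-to-U editing.

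The batch labels pair the libraries; deviations of same-numbered libraries from their group means correlated at 0.0576 in the sort and -0.0342 in the knockdown reads, and the fits reported have no block. The siNC libraries were summed because their reads differed by no more than sampling noise; C-to-U edited reads of the 2 differed slightly more (chi-square per degree of freedom 1.09). Coding sequences came from GENCODE v29, the longest coding transcript a gene. The rule for naming members was, in each comparison, the 5 largest rises and falls among members and 7 related pairs. For sort abundance the text names all of these. For editing and for the knockdown it names only some of them. It also names members outside the rule, such as HNRNPA3, HNRNPK and SRSF2 in knockdown A-to-I editing. Other members are given by count or range. Members, pairs and lists were chosen with earlier results of these data known. Alternatives were scaling by library size, DESeq2 1.42.0, no filter, limma 3.58.1 on log2 scores, centring, coverage minimums, a replicate block and leaving out each library.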

Additional observations from a re-analysis of the deposited data

How the results depend on the processing

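In the sort, 132 abundance, 139 A-to-I and 138 C-to-U values of single members under the alternatives kept direction and side of the threshold. Another 16, 8 and 7 values lost their call, and 4, 6 and 2 changed sign. These counts cover only the members picked by the naming rule, that is the largest rises and falls and the related pairs, and not all 39. Members higher in abundance were 4 with library-size scaling and 3 to 12 with a library left out. Centring on library medians left 23 members higher and 3 lower in A-to-I and 22 higher in C-to-U, since it removes the general rise of each editor; DESeq2, no filter and the replicate block kept every sort count of members within 1.5 times. HNRNPH2 abundance became -0.193 with library-size scaling and -0.028 with no filter, and ran from -0.086 to 0.077 with a library left out. Centring turned A-to-I negative for HNRNPA1 (-0.585), HNRNPL (-0.947), HNRNPU (-0.038), HNRNPUL2 (-0.347), TRA2A (-0.514) and TRA2B (-0.186), and C-to-U for HNRNPH1 (-0.425) and HNRNPUL2 (-0.353).

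In the knockdown reads, members lower were 3 with all 4 libraries and the replicate block, and 0 to 22 with a library left out, with 0 to 1 higher. Genes called over all genes were 60 in the fit reported, 3 by DESeq2, 154 with 4 libraries, 521 with the replicate block, and 32 to 2127 with a library left out. With a library left out, log2 changes ran from -0.129 to 0.045 for HNRNPA1, -0.167 to 0.023 for HNRNPDL, -0.008 to 0.143 for HNRNPH2 and -0.018 to 0.077 for PTBP1.

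No member was called in knockdown editing under any alternative run, and the following log2 odds ratios changed sign. In A-to-I, centring gave -0.029 (HNRNPA1), -0.138 (HNRNPA2B1), -0.156 (HNRNPLL) and -0.025 (HNRNPU), and the replicate block 0.018 (PTBP1), where the block called 30 genes in all. With a library left out A-to-I ran from -1.624 to 0.322 (HNRNPA1L2), -6.318 to 3.419 (HNRNPA2B1), -0.576 to 1.029 (HNRNPLL), -0.001 to 0.6 (HNRNPU), -0.941 to 0.955 (PTBP1), -1.975 to 0.168 (SRSF4) and -5.079 to 0.017 (TRA2A). In C-to-U, centring gave -0.018 (HNRNPD) and -0.176 (PTBP2), and the block called 4 genes in all. With a library left out C-to-U ran from -0.392 to 0.137 (HNRNPA2B1), -0.049 to 0.387 (HNRNPD), -0.549 to 0.078 (HNRNPH1), -0.063 to 0.584 (HNRNPLL), -0.728 to 0.311 (HNRNPU), -0.172 to 0.881 (HNRNPUL2), -0.062 to 0.616 (PTBP1), -0.24 to 0.416 (PTBP2) and -0.405 to 2.416 (SRSF4). Apart from centring, whose construction shows it, the cause of these changes was not tested. The replicate block changed no other call of a member named in the text, save HNRNPK in the sort, which lost its call. Low edited counts limit the knockdown scores, and reads of HNRNPA1L2 and of overlapping genes limit the abundances.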
